A study of Homo sapiens with 12 samples.

Results

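Ion channel and synaptic genes were followed in RNA from Ishikawa cells, which derive from an adenocarcinoma of the human endometrium, with and without knockdown of ARID1A. The set was defined by gene symbol: potassium channel genes (KCN), voltage-gated calcium channel genes (CACNA, CACNB, CACNG), voltage-gated sodium channel genes (SCN), glutamate receptor genes (GRIA, GRIK, GRIN), synaptotagmins (SYT), the CLC chloride family (CLCN), transient receptor potential genes (TRPC, TRPM, TRPV), and SNAP25, SYP and SYN1. The rule found 158 members among the 45320 genes in the count files, and 1 matching antisense or intronic transcript was left out. SYN1 was not analysed here. The rule uses no expression value, although the members were chosen with earlier results of these data known.

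The cells carried a hairpin against ARID1A (shARID1A) or a control hairpin (shNC). ARID1A is a subunit of SWI/SNF chromatin remodellers, which move nucleosomes with the energy of ATP. Before lysis all cells spent at least 4 days in phenol red-free medium whose serum had been stripped of steroids with charcoal. For the last 8 h each arm received DMSO alone, estradiol (E2) at 10 nM, or E2 at 10 nM together with fulvestrant at 100 nM. Fulvestrant blocks the estrogen receptor and promotes its degradation. The groups were shARID1A with DMSO, with E2 and with E2 plus fulvestrant, and shNC with the same 3 treatments, with 2 libraries in each. The labels name no hairpin sequence, number of lines or clone, so that loss of ARID1A and other differences between the lines cannot be told apart. Whether replicate libraries stem from separate cultures is not given either, and p-values measure only the spread between libraries, which may be technical.

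Ion channels are membrane proteins that let selected ions cross in response to voltage, ligands, calcium, stretch or heat. Most consist of a pore-forming subunit and auxiliary subunits that set its surface level and gating. In epithelial cells potassium and chloride channels set the membrane potential, cell volume and fluid secretion, and calcium-permeable channels feed calcium signals. SNARE proteins such as SNAP25 and the calcium sensors of the synaptotagmin family drive vesicle fusion. They are best known from nerve terminals, although other secretory cells use members of the same families.

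Libraries held 28810351 to 38657162 counts, and the 158 members together took 0.102 to 0.106% of the counts in shARID1A libraries and 0.104 to 0.107% in shNC libraries. Levels are given as CPM, counts relative to library size as adjusted by edgeR's TMM factors. These factors were 0.957 to 0.992 in shARID1A and 1.012 to 1.034 in shNC libraries, so that the scaling raised shARID1A levels relative to shNC levels. A gene with 0 counts could still have been present at up to 3 counts, or 0.0776 to 0.104 CPM by library, a limit that covers counting error only. ARID1A itself, at chr1:27055871-27107678 of hg19, ranged over 53.7 to 61.6 CPM in shARID1A libraries and 109.9 to 123.2 CPM in shNC libraries, without overlap. Its log2 fold change averaged over treatments was -1.03 (SE 0.04, edgeR adjusted p = 3.02e-19). As a check of the cell type, the keratin gene KRT8 had 342 to 367 CPM in shARID1A and 563 to 618 CPM in shNC libraries. The epithelial adhesion genes EPCAM and CDH1 were low, at 0.383 to 1.02 and 0.0639 to 0.412 CPM in shARID1A and 1.28 to 1.97 and 0 to 0.657 CPM in shNC. Of 16 neuronal and neuroendocrine markers in the files, 7 had 0 counts in all 12 libraries, among them CHGB and DCX.

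Most members had few or no counts, as did most genes in the count files. Of all 45320 genes, 28723 had at least 1 count over the 12 libraries and 17020 passed the filter on low counts. Of the 158, 52 had 0 counts in all 12 libraries and 49 more had too few to test, the highest being 19 counts in 1 library (KCNG2). This left 57 members that passed the filter on low counts, of which 18 had a mean under 1 CPM in both arms, 15 reached 1 to 10 CPM and 24 exceeded 10 CPM in the arm with the higher mean. No inward rectifier (KCNJ, 7 members) and no AMPA receptor subunit (GRIA, 4 members) passed. Counted exon ran from 525 bases (KCNJ1) to 5999 bases (KCNJ16) in the KCNJ genes and from 3742 bases (GRIA1) to 6263 bases (GRIA2) in the GRIA genes. It was thus short in some KCNJ genes, such as KCNJ1, and in some other members, such as KCNA2 at 580 bases. Over such short exons a lack of counts does not show that the RNA was absent. KCNJ16 and GRIA2 had 0 counts in all 12 libraries over their longer exons. SCN4A was the sole sodium channel pore gene of 9 to pass, and only 6 of 24 voltage-gated potassium channel genes did. The CLC family stood at the other end, with 6 of its 7 members passing.

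Relative to the length of counted exon, the highest level was that of TRPC4AP, at 93.7 RPKM (CPM per kilobase of exon) in shARID1A and 81.7 RPKM in shNC. TRPC4AP matches the symbol rule but encodes an adaptor protein that binds a TRP channel and a ubiquitin ligase, not a channel. The highest channel genes were KCNN4, the calcium-activated potassium channel KCa3.1, with 29.7 RPKM in shARID1A and 27.9 RPKM in shNC, and KCNQ1, a voltage-gated potassium channel of secretory epithelia, with 26.8 RPKM in shARID1A and 24.3 RPKM in shNC. They were followed by KCNK1, a two-pore potassium channel, CLCN7, a lysosomal chloride and proton exchanger, and KCNAB2, an auxiliary potassium subunit, at 9.12 to 17.1 RPKM in shARID1A and 11.3 to 17.0 RPKM in shNC. TRPM7, a magnesium- and calcium-permeable channel fused to a kinase, and CLCN6, a late endosomal exchanger, lay at 5.86 to 6.55 RPKM in shARID1A and 6.86 to 8.02 RPKM in shNC. Levels between genes are compared here on the RPKM scale only.

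**Figure D1:**
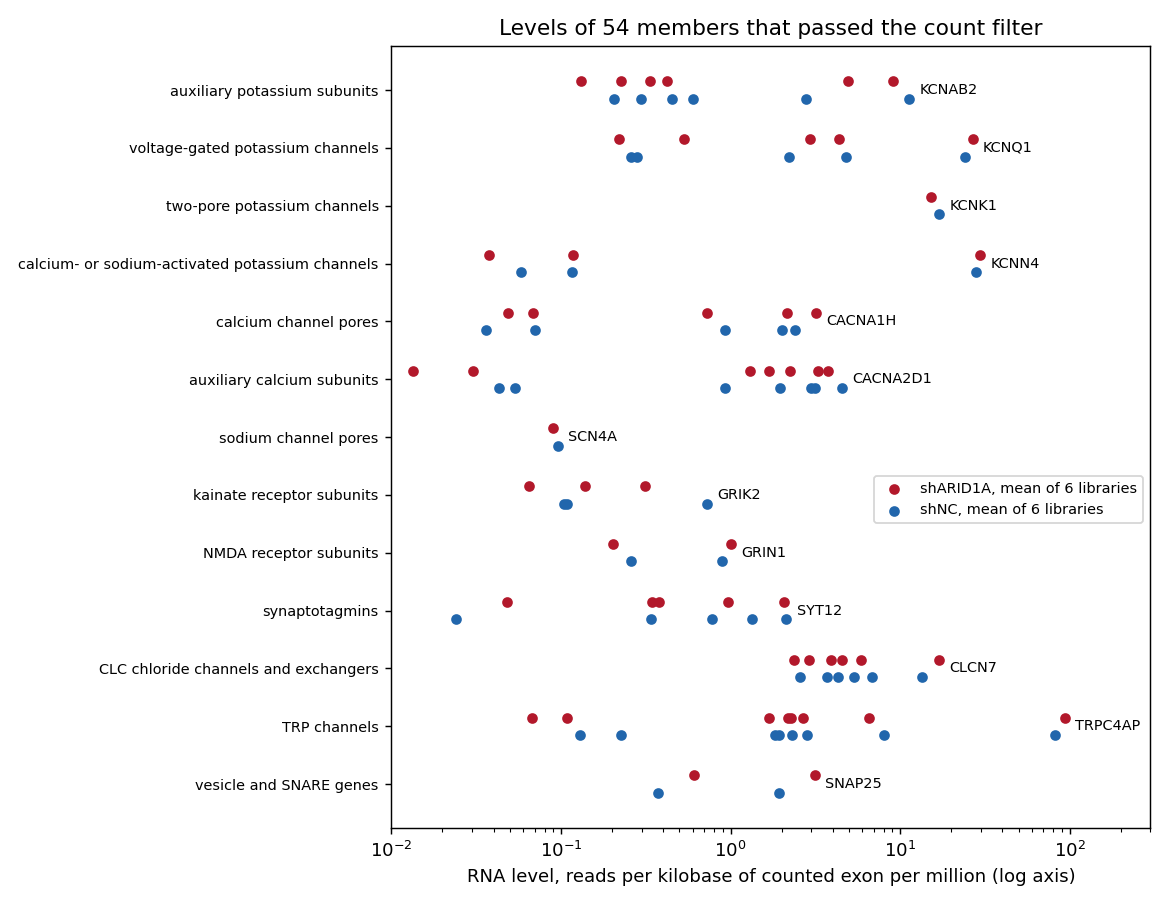
Mean RNA level of 54 members that passed the count filter, in RPKM on a log axis, by role, with shARID1A in red above shNC in blue (means of 6 libraries each). The member with the highest level in each role is named; levels run from 0.0134 for CACNB4 in shARID1A to 93.7 for TRPC4AP in shARID1A.

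The comparison of shARID1A with shNC asked which members differed with the knockdown. Among calcium channel genes, the beta subunit gene CACNB2 rose, while the beta subunit gene CACNB1 and the alpha2delta gene CACNA2D3 fell. The potassium channel partner KCNIP3 and the SNARE gene SNAP25 rose, and SYT17 and the kainate receptor gene GRIK2 fell. Averaged over the 3 treatments, 28 of the 57 members tested were called at an adjusted p under 0.05 (edgeR's quasi-likelihood test, Benjamini-Hochberg adjustment over all 17020 genes tested), 12 higher and 16 lower in shARID1A. That is 49.1% of the members, beside 43.1% of all genes tested (20.3% higher and 22.8% lower), so that the share of members called was near the background. The shares over all genes tested also stand beside the counts by role and by list given below. Where the mean reached 1 CPM it was 24 of 39 members, beside 51.4% of such genes, and where it reached 10 CPM 13 of 21 members, beside 60.2%. Changes over 2-fold were found in 1 member called higher and 7 called lower, beside 1.22% and 3.42% of all genes tested. In 16 members the 6 libraries of each arm did not overlap in TMM-scaled CPM, beside 22.0% of all genes tested. The median log2 fold change was -0.13 over the members tested and -0.02 over all genes tested.

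The epithelial marker list moved with the arm, with 7 of its 8 tested genes lower and a summed level of 656 to 713 CPM in shARID1A and 1012 to 1110 CPM in shNC. Its part in the differences among the members was not tested. The neuronal list had 2 of 4 tested genes lower, GAD1 and ENO2, none higher, and a summed level of 236 to 276 CPM in shARID1A and 269 to 300.1 CPM in shNC. TUBB3, at 203 ± 9.09 CPM in shARID1A and 202 ± 11.9 CPM in shNC (SD, n = 6 each), made up most of that sum and was not called. In RNA from whole cultures, fewer cells that express a gene and less RNA per cell cannot be told apart.

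**Figure D2:**
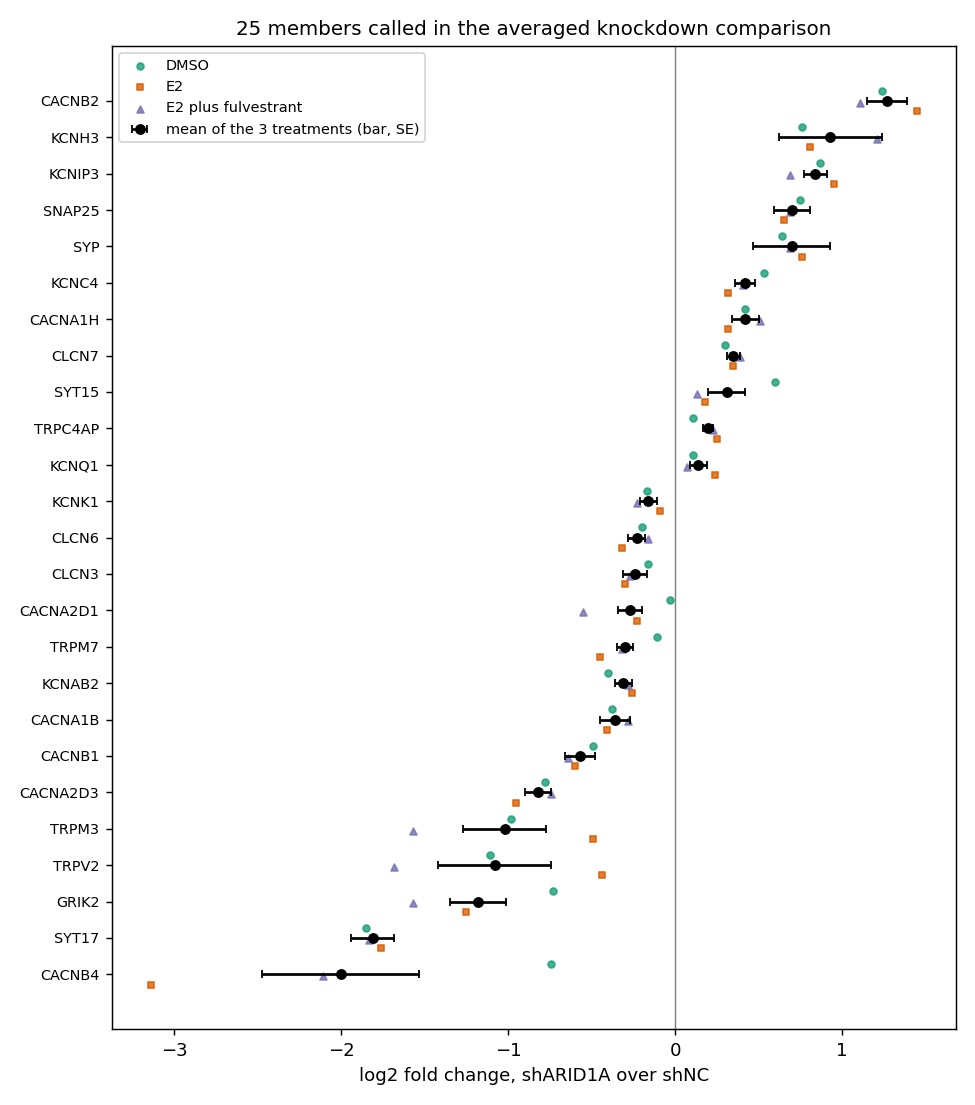
Log2 fold change of shARID1A over shNC for 25 members called in the averaged comparison, with black points and SE bars for the mean of the 3 treatments and coloured marks for DMSO, E2 and E2 plus fulvestrant. The averages run from -2.0 for CACNB4 to 1.27 for CACNB2, and for each member shown the 3 single treatments lie on the same side of 0.

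Voltage-gated calcium channels combine a CACNA1 pore with a cytoplasmic beta subunit (CACNB), which brings the pore to the membrane, and an extracellular alpha2delta subunit (CACNA2D), which in the case of CACNA2D1 is the target of gabapentin. CACNB2 had 10.6 and 9.60 CPM with DMSO, 11.1 and 8.94 CPM with E2 and 10.1 and 10.1 CPM with E2 plus fulvestrant in shARID1A. In shNC it had 4.06 and 4.55 CPM, 2.52 and 4.64 CPM, and 5.13 and 4.20 CPM under the same treatments. Every shARID1A library lay above every shNC library. The averaged log2 fold change was 1.27 (SE 0.12, edgeR adjusted p = 1.15e-10), the largest increase among the members, and CACNB2 was called at each treatment, with log2 fold changes of 1.24, 1.45 and 1.11 with DMSO, E2 and E2 plus fulvestrant.

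CACNB1, another beta subunit gene, had 6.93, 7.77 and 9.74 CPM (lowest, median and highest of 6 libraries) in shARID1A and 11.04, 11.8 and 12.6 CPM in shNC. Its arms did not overlap, and its log2 fold change was -0.57 (SE 0.09, edgeR adjusted p = 3.16e-06). CACNB3, the most abundant beta subunit gene, had 20.4 to 25.8 CPM in shARID1A and 22.1 to 23.9 CPM in shNC, overlapped between arms and was not called. CACNB4 lay at 0 to 0.404 CPM in shARID1A and 0.438 to 0.769 CPM in shNC, at most 24 counts, so that the size of its fitted change (log2 fold change -2.0, SE 0.47, edgeR adjusted p = 7.4e-04) is uncertain. As a share of the summed RPKM of the 4 beta subunit genes, CACNB2 held 29.3 to 36.6% in shARID1A and 9.88 to 18.5% in shNC. CACNB1 held 16.5 to 22.5% in shARID1A and 30.3 to 35.0% in shNC. CACNB2 thus exceeded CACNB1 in every shARID1A library, and CACNB1 exceeded CACNB2 in every shNC library, while the sum was 6.47 to 7.33 RPKM in shARID1A and 5.68 to 6.47 RPKM in shNC.

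**Figure D3:**
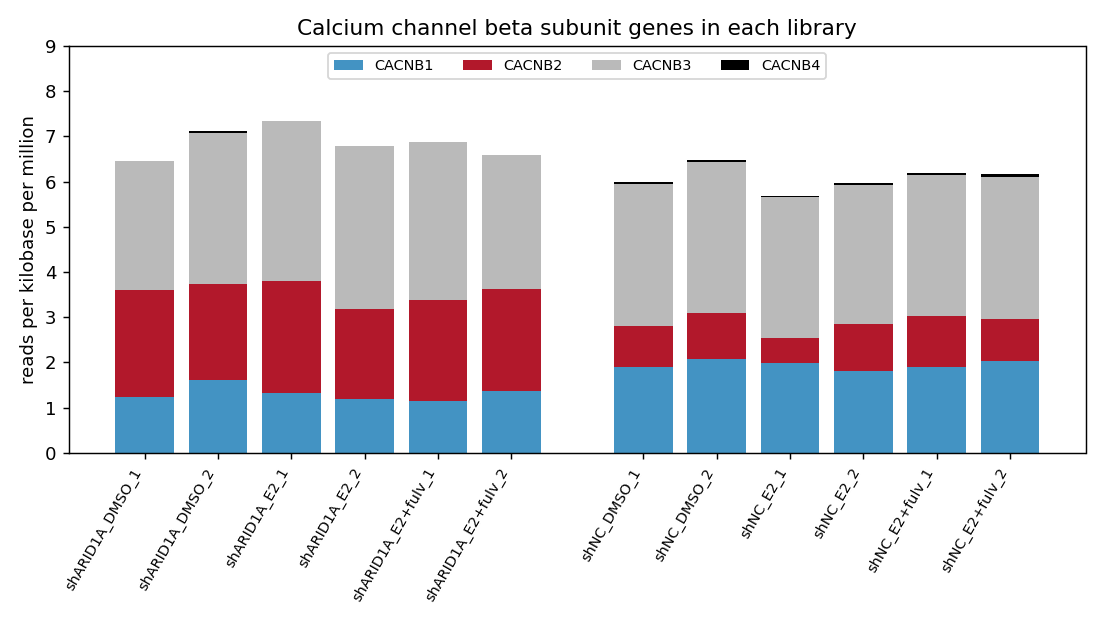
Stacked RNA levels of the 4 calcium channel beta subunit genes in each of the 12 libraries, in RPKM, with the 6 shARID1A libraries left of the 6 shNC libraries. CACNB2 takes 29.3 to 36.6% of each shARID1A bar and 9.88 to 18.5% of each shNC bar, and CACNB1 takes 16.5 to 22.5% and 30.3 to 35.0%.

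CACNA2D3, an alpha2delta gene, had 7.83 and 8.96 CPM with DMSO, 6.58 and 7.67 CPM with E2 and 7.99 and 8.30 CPM with E2 plus fulvestrant in shARID1A. Its shNC libraries had 14.3 and 14.5 CPM, 14.2 and 13.6 CPM, and 13.4 and 13.7 CPM. The highest shARID1A library lay well below the lowest shNC library, and the log2 fold change was -0.82 (SE 0.08, edgeR adjusted p = 7.26e-10). CACNA2D1, the most abundant alpha2delta gene, had 15.98 to 23.1 CPM in shARID1A and 20.9 to 29.1 CPM in shNC, with overlapping arms, and fell by 0.27 on the log2 scale (SE 0.07, edgeR adjusted p = 0.0031). It was called only in the comparison with E2 plus fulvestrant, at -0.55 (SE 0.13, edgeR adjusted p = 0.00173), and is named here after its values were seen. The summed level of the alpha2delta genes was 4.79 to 6.1 RPKM in shARID1A and 7.09 to 8.53 RPKM in shNC.

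Among the 10 pore genes 5 passed the filter, with 1 called higher and 1 lower. CACNA1H, the pore of the low-voltage-activated T-type channel Cav3.2, had 13.99, 16.4 and 17.4 CPM (lowest, median, highest) in shARID1A and 10.7, 11.9 and 13.5 CPM in shNC. The arms did not overlap in CPM, although they did with library totals alone. Its log2 fold change was 0.42 (SE 0.08, edgeR adjusted p = 8.01e-05). CACNA1B, the pore of the N-type channel of nerve terminals, had 6.64, 7.29 and 8.47 CPM in shARID1A and 9.02, 9.35 and 9.96 CPM in shNC, without overlap, and a log2 fold change of -0.36 (SE 0.09, edgeR adjusted p = 0.00145). CACNA1D, the L-type pore Cav1.3, was at 15.02 to 17.8 CPM in shARID1A and 13.5 to 17.0 CPM in shNC and was not called. Within the summed RPKM of the 5 pore genes tested, CACNA1H held 49.7 to 54.6% in shARID1A and 38.9 to 49.2% in shNC, and CACNA1B 10.3 to 13.1% and 15.7 to 18.1%. No gamma subunit gene (CACNG) passed the filter.

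Among potassium channel genes, 6 auxiliary subunit genes passed the filter, with 1 called higher and 1 lower. KCNIP3, also called calsenilin or DREAM, encodes a calcium-binding protein that serves as an auxiliary subunit of Kv4 channels and is also described as a transcriptional repressor. It had 39.0 and 35.8 CPM with DMSO, 36.6 and 40.02 CPM with E2 and 39.2 and 30.5 CPM with E2 plus fulvestrant in shARID1A. The shNC libraries held 21.2 and 19.7 CPM, 21.6 and 18.3 CPM, and 22.1 and 21 CPM. No library of either arm reached the other arm, and the log2 fold change was 0.84 (SE 0.07, edgeR adjusted p = 3.71e-12). Of the Kv4 pore genes among the members, KCND1 stayed at 0.351 to 1.41 CPM in shARID1A and 0.415 to 1.31 CPM in shNC and was not called. KCND2 had 0 counts in all 12 libraries, over only 719 bases of counted exon, which does not show that its RNA was absent. Any other Kv4 pore gene was not analysed here.

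Of the 6 voltage-gated potassium channel genes that passed, 4 were called higher and none lower, beside 20.3% and 22.8% of all genes tested. So few genes do not show a direction for the family. KCNC4, the fast-activating channel Kv3.4, had 24.6, 25.6 and 27.4 CPM in shARID1A and 16.5, 19.7 and 21.4 CPM in shNC (lowest, median, highest). Its arms did not overlap, its log2 fold change was 0.42 (SE 0.06, edgeR adjusted p = 2.69e-06), and it was called at each treatment. KCNQ1 had 73.7 to 93.5 CPM in shARID1A and 69.2 to 81.9 CPM in shNC. Its arms overlapped, the log2 fold change was 0.14 (SE 0.05, edgeR adjusted p = 0.0206), and the call was lost with library totals alone (0.07, edgeR adjusted p = 0.271) and when any of 5 libraries was left out. KCNH3, named after its values were seen, had 0.595 to 1.03 CPM in shARID1A and 0.188 to 0.607 CPM in shNC, from 6 to 30 counts in a library. Its arms overlapped, and its log2 fold change was 0.93 (SE 0.31, edgeR adjusted p = 0.0163).

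The auxiliary subunit KCNAB2, which binds Kv1 pores, had 45.7, 51.4 and 58.0 CPM in shARID1A and 57.1, 64.9 and 67.9 CPM in shNC. Only the highest shARID1A and the lowest shNC library overlapped, and KCNAB2 was called at each treatment, with an averaged log2 fold change of -0.31 (SE 0.05, edgeR adjusted p = 2.4e-06). The two-pore channel KCNK1 had 39.1 to 45.5 CPM in shARID1A and 43.7 to 49.5 CPM in shNC. It fell by 0.16 on the log2 scale (SE 0.05, edgeR adjusted p = 0.00941) and was called at no single treatment. KCNN4, the most abundant potassium channel gene by RPKM, had 73.0 to 80.4 CPM in shARID1A and 65.3 to 76.9 CPM in shNC, and was not called. Its call appeared when the second shNC library with E2 plus fulvestrant was left out (log2 fold change 0.13, edgeR adjusted p = 0.0196).

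SCN4A, the skeletal muscle sodium channel pore, had 0.337 to 1.16 CPM in shARID1A and 0.219 to 1.48 CPM in shNC and was not called.

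Glutamate receptor genes were low. GRIK2, a pore-forming kainate receptor subunit, had 1.52 and 2.70 CPM with DMSO, 1.47 and 1.89 CPM with E2 and 1.41 and 1.96 CPM with E2 plus fulvestrant in shARID1A. In shNC it had 3.34 and 3.64 CPM, 4.82 and 3.36 CPM, and 5.73 and 4.26 CPM. The arms did not overlap, and the averaged log2 fold change was -1.18 (SE 0.17, edgeR adjusted p = 7.49e-07). It was called with E2 and with E2 plus fulvestrant but not with DMSO, where it was -0.73 (SE 0.30, edgeR adjusted p = 0.087). GRIN1, the obligatory NMDA receptor subunit, had 5.03 to 8.30 CPM in shARID1A and 5.36 to 6.55 CPM in shNC, and was called only with E2, at 0.52 (SE 0.17, edgeR adjusted p = 0.0225). Its average over treatments was 0.16 (SE 0.11, edgeR adjusted p = 0.227).

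Among the vesicle genes, SNAP25, the plasma membrane SNARE, had 10.1 and 11.7 CPM with DMSO, 9.68 and 8.84 CPM with E2 and 6.96 and 11.1 CPM with E2 plus fulvestrant in shARID1A. The shNC libraries had 6.82 and 6.10 CPM, 5.26 and 6.46 CPM, and 4.92 and 6.31 CPM. The lowest shARID1A library lay just above the highest shNC library, a gap that is lost with library totals alone. SNAP25 was called at each treatment, with an averaged log2 fold change of 0.70 (SE 0.11, edgeR adjusted p = 4.7e-06). SYP, the vesicle membrane protein synaptophysin, had 1.22, 1.63 and 2.49 CPM in shARID1A and 0.812, 1.08 and 1.34 CPM in shNC (lowest, median, highest). Its arms overlapped, its averaged log2 fold change was 0.70 (SE 0.23, edgeR adjusted p = 0.0152), it was called at no single treatment, and the averaged call was lost without any of 3 libraries.

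Synaptotagmins carry C2 domains that bind membranes, in several members with calcium. SYT17 had 2.05 and 2.90 CPM with DMSO, 2.14 and 2.54 CPM with E2 and 2.02 and 2.70 CPM with E2 plus fulvestrant in shARID1A. In shNC it had 9.58 and 8.15 CPM, 7.69 and 8.26 CPM, and 9.55 and 7.30 CPM. The arms were widely separated, and the log2 fold change of -1.81 (SE 0.13, edgeR adjusted p = 4.27e-13) was the largest decrease among members above 1 CPM. It was -1.85, -1.76 and -1.83 with DMSO, E2 and E2 plus fulvestrant. Another gene on the same strand overlaps the span of SYT17, and whether exons are shared was not tested. SYT15, which has a near-identical copy in the genome that the counting could split, had 5.50 to 7.86 CPM in shARID1A and 4.38 to 6.09 CPM in shNC. Its log2 fold change of 0.31 (SE 0.11, edgeR adjusted p = 0.0297) was lost with library totals alone (0.23, edgeR adjusted p = 0.107) and without any of 6 libraries. SYT12, the most abundant synaptotagmin gene, at 12.02 to 15.7 CPM in shARID1A and 11.3 to 15.7 CPM in shNC, was not called.

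**Figure D4:**
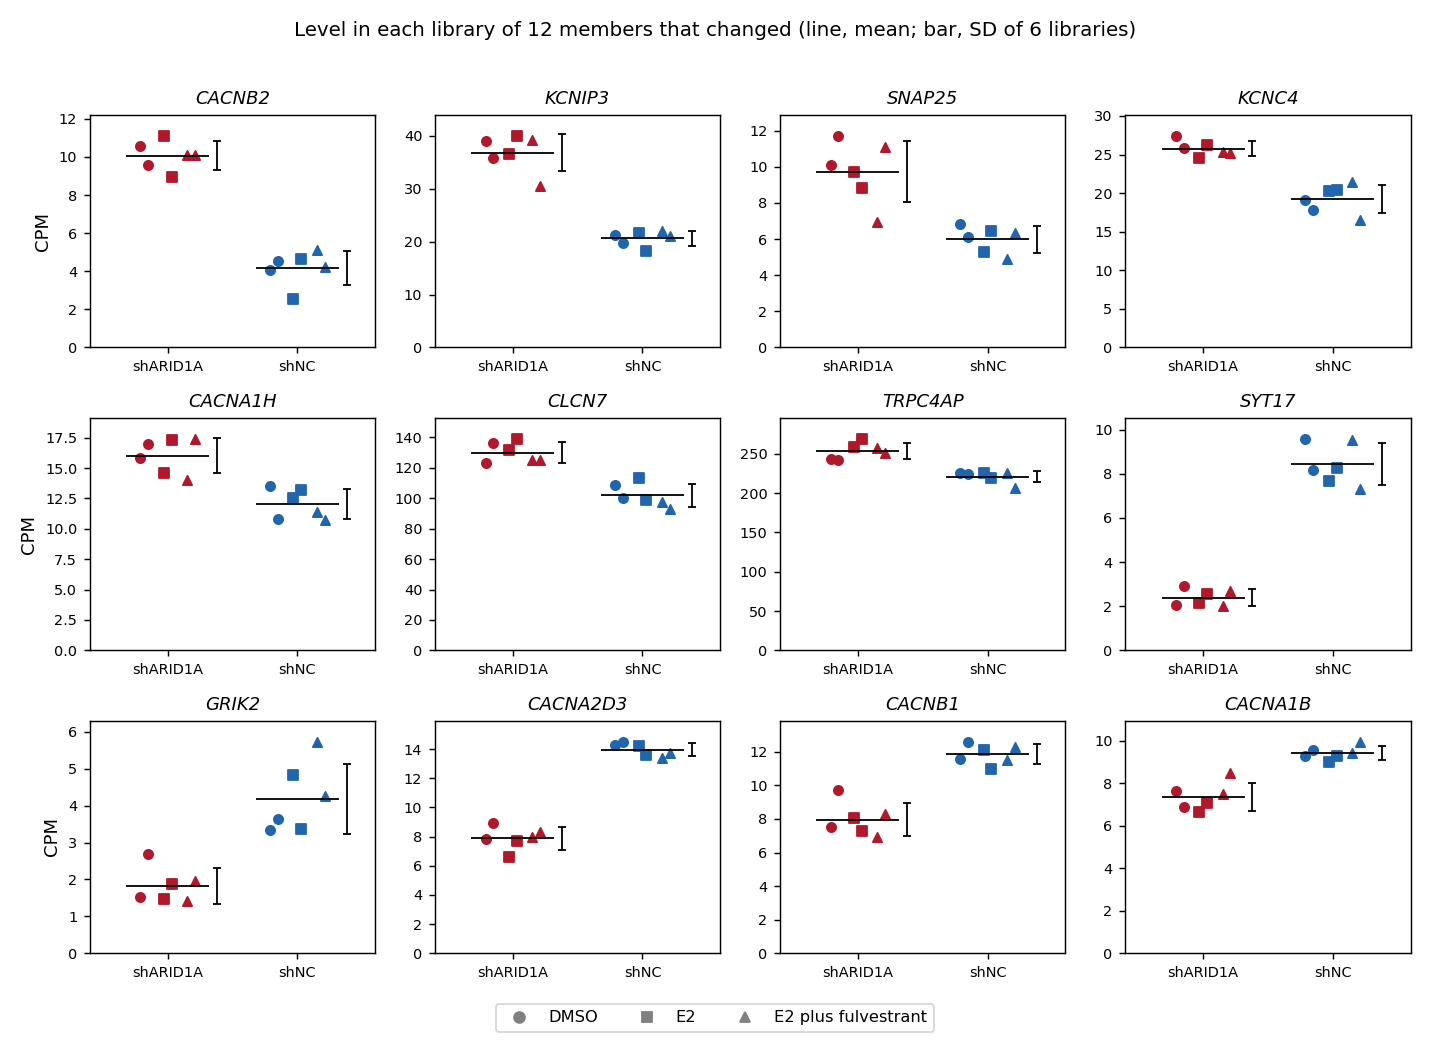
Level of 12 members in each library in CPM, shARID1A in red left of shNC in blue, with circles for DMSO, squares for E2 and triangles for E2 plus fulvestrant, a line for the mean and a bar for the SD of 6 libraries. In each panel the libraries of the arms do not overlap in CPM, which for SNAP25 and CACNA1H depends on the TMM factors. CACNB2 lies at 8.94 to 11.1 CPM in shARID1A and 2.52 to 5.13 CPM in shNC, and SYT17 at 2.02 to 2.90 and 7.30 to 9.58 CPM.

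CLC proteins are chloride channels at the cell surface or chloride and proton exchangers of endosomes and lysosomes. CLCN7 had 123, 129 and 139 CPM in shARID1A and 93.1, 99.6 and 113 CPM in shNC (lowest, median, highest). The arms did not overlap, the averaged log2 fold change was 0.35 (SE 0.04, edgeR adjusted p = 2.44e-08), and CLCN7 was called at each treatment. CLCN6 had 38.3 to 43.4 CPM in shARID1A and 43.2 to 49.8 CPM in shNC and fell by 0.23 on the log2 scale (SE 0.05, edgeR adjusted p = 3.29e-04). It shares genomic bases with another gene on the same strand, and reads in shared exons could not be assigned to it alone. CLCN3, an endosomal exchanger named after its values were seen, had 17.7 to 22.2 CPM in shARID1A and 21.5 to 25.2 CPM in shNC and fell by 0.24 (SE 0.07, edgeR adjusted p = 0.005). CLCN2, CLCN4 and CLCN5 were not called.

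Of the 22 members with TRP symbols, 9 passed, and 1 was called higher and 4 lower. TRPM7 had 61.9 and 62.3 CPM with DMSO, 56.9 and 48.2 CPM with E2 and 58.7 and 71.5 CPM with E2 plus fulvestrant in shARID1A. Levels in shNC were 62.0 and 72.3 CPM, 67.8 and 75.3 CPM, and 80.8 and 82.1 CPM. The arms overlapped, and the averaged log2 fold change was -0.30 (SE 0.05, edgeR adjusted p = 2.52e-05). It was called with E2 (-0.45, SE 0.09, edgeR adjusted p = 3.04e-04) but not with DMSO (-0.11, SE 0.09, edgeR adjusted p = 0.47), and also when fulvestrant was added to E2 (-0.32, SE 0.09, edgeR adjusted p = 0.00743).

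TRPM3, a channel opened by heat and some steroids, had 0.371 to 1.66 CPM in shARID1A and 1.31 to 2.41 CPM in shNC. Its arms overlapped and its log2 fold change was -1.02 (SE 0.25, edgeR adjusted p = 0.00108). TRPV2, a cation channel named after its values were seen, had 0.202 to 0.511 CPM in shARID1A and 0.574 to 0.993 CPM in shNC and a fitted log2 fold change of -1.08 (SE 0.34, edgeR adjusted p = 0.0102). Other TRP genes at several CPM were not called. The heat- and capsaicin-gated channel TRPV1 had 6.55 to 8.13 CPM in shARID1A and 7.58 to 8.81 CPM in shNC (log2 fold change -0.19, SE 0.09). TRPM4, a calcium-activated cation channel, had 13.4 to 15.3 CPM in shARID1A and 13.4 to 16.9 CPM in shNC (-0.07, SE 0.07). TRPM2, a channel opened by ADP-ribose, had 14.8 to 17.7 CPM in shARID1A and 15.4 to 18.8 CPM in shNC (-0.08, SE 0.07). All 3 overlapped between the arms.

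The adaptor gene TRPC4AP, at 242 to 269 CPM in shARID1A and 207 to 225 CPM in shNC, rose by 0.20 on the log2 scale (SE 0.03, edgeR adjusted p = 6.11e-06), with arms that did not overlap.

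The single treatments gave fewer calls. With DMSO 13 of the 57 members were called, 7 higher and 6 lower, beside 19.2% of all genes tested (9.7% and 9.5%), or 5 higher and 8 lower with library totals alone. With E2 19 were called, 8 higher and 11 lower, beside 27.2% (13.4% and 13.8%), or 5 higher and 12 lower with library totals alone. With E2 plus fulvestrant 18 were called, 7 higher and 11 lower, beside 24.2% (11.4% and 12.8%). These percentages are from the TMM-scaled fit. With library totals alone, shARID1A levels of all genes are lower relative to shNC, and no share of all genes is given for that scaling. The counts with library totals alone therefore do not show a direction particular to the members. The counts of called members rested in part on single libraries. With DMSO 8 members were called without the first shARID1A library and 8 without the second shNC library. With E2 11 were called without the second shARID1A library and 12 without the second shNC library, and with E2 plus fulvestrant 11 without the second shNC library. At all 3 treatments 5 members were called higher, namely CACNB2, KCNIP3, SNAP25, KCNC4 and CLCN7, and 6 lower, among them CACNA2D3, CACNB1, KCNAB2 and SYT17. These counts stand beside 6.76% and 6.5% of all genes tested, and the 3 comparisons use different libraries within the same lines.

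The treatments asked whether E2, or fulvestrant added to E2, moved the members. No member was called in any of the 6 comparisons, by edgeR or by DESeq2. E2 over DMSO gave 0 calls in shARID1A, where 0.0235% of all genes tested were called, and 0 in shNC, where 0.00588% were. E2 plus fulvestrant over E2 gave 0 calls in each arm, beside 0.00588% of all genes tested in each. The tests of whether the arms differed in the effect of E2 or of fulvestrant gave 0 calls each, beside 0.0294% and 0.0118% of all genes tested. At an unadjusted p under 0.05, E2 gave 3 members in shARID1A and 2 in shNC, beside 6.61% and 3.85% of all genes tested, and 1 for the difference between arms, beside 6.34%. Fulvestrant gave 4 in shARID1A and 4 in shNC, beside 9.78% and 7.78%, and 1 for the difference, beside 3.48%. Among 37 members at 1 CPM or more in 1 arm, the log2 fold changes ran from -0.67 to 0.74 for E2 in shARID1A and from -0.50 to 0.46 in shNC. For fulvestrant they ran from -0.92 to 0.49 in shARID1A and from -0.32 to 0.36 in shNC.

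TRPM7 had an unadjusted p under 0.05 in more of these comparisons than the other members named here. In shARID1A its log2 fold change was -0.25 with E2 over DMSO (SE 0.09, edgeR adjusted p = 0.694) and 0.32 with E2 plus fulvestrant over E2 (SE 0.09, edgeR adjusted p = 0.34). In shNC it was 0.10 (SE 0.09, edgeR adjusted p = 1.0) and 0.19 (SE 0.09, edgeR adjusted p = 0.632). The difference between the arms in the E2 effect was -0.34 (SE 0.13, edgeR adjusted p = 0.752). GRIN1 had a log2 fold change of -0.56 with E2 plus fulvestrant over E2 in shARID1A (SE 0.18, edgeR adjusted p = 0.356). CLCN2, a plasma membrane chloride channel, had one of 0.46 with E2 over DMSO in shNC (SE 0.16, edgeR adjusted p = 1.0). None passed the threshold. TRPM7, GRIN1 and CLCN2 are given here after their values were seen, and E2 and fulvestrant comparisons within an arm share the E2 libraries.

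**Figure D5:**
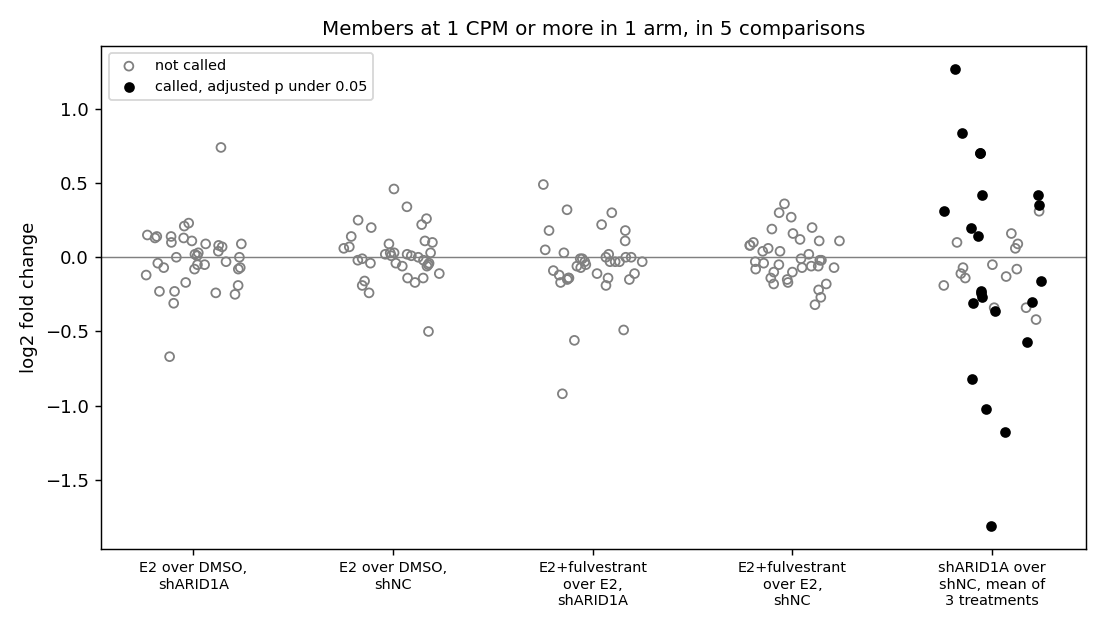
Log2 fold changes of 37 members at 1 CPM or more in 1 arm, in 4 treatment comparisons and in the averaged comparison of shARID1A with shNC, with filled points for adjusted p under 0.05; the horizontal scatter within a column has no meaning. The treatment comparisons hold no filled point, and the knockdown comparison runs from -1.81 to 1.27.

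Promoter sequence was read for the members from a RefSeq table of GRCh38.p14, which holds 250 bases before to 50 bases after each start; the counts themselves are on hg19 and no coordinate was carried over. The table matched 113 of the 158 members and 19 of the 28 called in the averaged comparison. The windows of 2 members that rose and 2 that fell at each treatment are shown, chosen after their values were seen, to let the promoters of genes that moved in opposite directions be set side by side. Capitals mark the GC box GGGCGG and the E-box CACGTG, on either strand, as found by search; each sequence is given 5′ to 3′ on the gene's strand.
KCNIP3 (rose; chr2:95346408-95346707, plus strand): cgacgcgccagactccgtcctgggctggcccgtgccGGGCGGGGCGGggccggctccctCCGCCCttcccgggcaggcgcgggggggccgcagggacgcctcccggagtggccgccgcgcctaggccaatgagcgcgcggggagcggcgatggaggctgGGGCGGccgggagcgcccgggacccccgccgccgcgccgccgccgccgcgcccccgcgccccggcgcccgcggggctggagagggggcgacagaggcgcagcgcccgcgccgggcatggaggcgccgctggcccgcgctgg
CLCN7 (rose; chr16:1474979-1475278, minus strand): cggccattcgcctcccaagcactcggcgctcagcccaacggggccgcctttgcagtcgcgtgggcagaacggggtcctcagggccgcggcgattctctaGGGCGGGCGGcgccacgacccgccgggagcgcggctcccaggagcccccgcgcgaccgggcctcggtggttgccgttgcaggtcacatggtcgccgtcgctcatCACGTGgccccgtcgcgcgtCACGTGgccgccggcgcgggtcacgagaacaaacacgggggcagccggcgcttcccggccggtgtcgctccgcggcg
CACNA2D3 (fell; chr3:54122302-54122601, plus strand): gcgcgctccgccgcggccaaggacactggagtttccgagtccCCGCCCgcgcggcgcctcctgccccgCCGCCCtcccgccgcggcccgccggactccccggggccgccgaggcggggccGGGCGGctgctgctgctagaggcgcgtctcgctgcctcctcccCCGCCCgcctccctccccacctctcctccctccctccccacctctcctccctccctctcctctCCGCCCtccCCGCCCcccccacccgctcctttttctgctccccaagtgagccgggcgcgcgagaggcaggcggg
CACNB1 (fell; chr17:39197620-39197919, minus strand): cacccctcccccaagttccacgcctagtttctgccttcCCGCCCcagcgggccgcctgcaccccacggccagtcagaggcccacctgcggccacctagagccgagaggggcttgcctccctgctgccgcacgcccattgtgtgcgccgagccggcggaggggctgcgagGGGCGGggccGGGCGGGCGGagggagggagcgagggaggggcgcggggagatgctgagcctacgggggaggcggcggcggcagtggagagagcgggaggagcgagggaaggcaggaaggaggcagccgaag

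All 4 windows are rich in G and C, at 85.7% for KCNIP3, 75.3% for CLCN7, 79.0% for CACNA2D3 and 74.7% for CACNB1, beside a median of 58.7% over the 35116 windows in the table. GC boxes were found in each: 4 in KCNIP3, 2 in CLCN7, 6 in CACNA2D3 and 4 in CACNB1, with overlapping matches counted separately. CLCN7 also held 2 copies of CACGTG, a search added after the CLCN7 sequence had been read. Over all windows, 45.0% held a GC box and 7.26% held CACGTG. GC boxes stood in 6 of the 10 windows of members called higher and in 10 of the 22 windows of members called lower, beside 20 of 34 windows of tested members not called. CACGTG stood in 1 of the 10 windows of members called higher, that of CLCN7, and in 4 of the 22 windows of members called lower. It stood in 4 of the 34 windows of tested members not called. The full estrogen response element, with both inverted repeats, stood in 0 of the 191 windows of members and in 0.057% of all windows. The AP-1 motif TGANTCA stood in 15 of the 191 member windows, or 7.85%, beside 7.71% of all windows, the full palindromic CRE motif in 0.524%, beside 1.85%, and the TATA box TATAAA in 6.81%, beside 11.5%. These matches describe letters in a fixed window and were not tested for any link with the changes.

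Other genes of the same pathways were read from lists of channel, receptor, vesicle, scaffold, transporter and REST complex genes, in the averaged comparison of shARID1A with shNC. Other ion channels had 11 higher and 12 lower of 49 tested, led by the endoplasmic reticulum calcium release channel ITPR1, at 351 ± 19.7 CPM in shARID1A and 186 ± 9.41 CPM in shNC (SD, n = 6 each; log2 fold change 0.92, edgeR adjusted p = 1.44e-19). The mechanosensitive channel PIEZO1 rose by 0.63 and TTYH3 fell by 0.76 on the log2 scale. The median log2 fold change was -0.03 over these 49 genes, beside -0.02 over all genes tested, of which 20.3% were called higher and 22.8% lower. Of 9 other ligand-gated and related receptors tested, with a median of -0.01, GRID1, the delta-type glutamate receptor, was called higher, at 13.9 to 16.1 CPM in shARID1A and 2.11 to 4.67 CPM in shNC (log2 fold change 2.10, edgeR adjusted p = 1.03e-15), and the GABA receptor gene GABRE lower (-0.88). GRID1 lies outside the GRIA, GRIK and GRIN symbols of the rule.

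The SNARE and vesicle release list had 15 higher and 13 lower of 55 tested and a median of -0.02, among them SYNGR1, a relative of synaptophysin (log2 fold change 1.14), and RAB27B, a secretory vesicle GTPase (-0.94). Synapse scaffold genes had 2 higher and 6 lower of 14 and a median of -0.09, led by SHANK3, at 2.95 ± 0.609 CPM in shARID1A and 8.90 ± 1.05 CPM in shNC (SD, n = 6 each; log2 fold change -1.60, edgeR adjusted p = 2.21e-12). Pumps and exchangers had 6 higher and 13 lower of 28 and a median of -0.06, and ATP1B3, a sodium pump beta subunit, had 991 ± 48.6 CPM in shARID1A and 422 ± 18.8 CPM in shNC (log2 fold change 1.23, edgeR adjusted p = 4.92e-25). The REST complex, which represses neuronal genes in other cells, had 1 higher and 2 lower of 10 and a median of -0.09, and REST itself, at 2.97 to 5.94 CPM in shARID1A and 4.29 to 5.36 CPM in shNC, was not called (-0.20, edgeR adjusted p = 0.236). Each list held genes that moved in both directions.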

How the data were processed

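The authors deposited unnormalized read counts per gene for each library. They were made with Subread 2.0.0 and featureCounts 2.0.0 against hg19 after Trim Galore, cutadapt and FastQC, per the submitters' processing notes, and over exons by gene with no strand setting, per the file headers. Reads of a gene and an antisense partner can therefore not be told apart, and 20 of the 28 called members have a gene on the opposite strand within their span. Among the called members named here, CLCN6, SYT17, CACNA2D3, CLCN7, KCNQ1, TRPM3 and TRPV2 overlap another gene on the same strand. The labels write the fulvestrant dose partly with the letter O, and it was taken as 100 nM.

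Counts of the 12 libraries were fitted in 1 edgeR 4.0.16 model (R 4.3.3) with 6 group means, after filterByExpr by group, which kept 17020 genes, and TMM scaling. The 10 contrasts were tested by the quasi-likelihood F-test, adjusted by Benjamini-Hochberg over all genes in a contrast, with calls at an adjusted p under 0.05. SE is the log2 fold change over the square root of F. The averaged contrast is the mean of the 3 within-treatment differences. CPM and RPKM use TMM-scaled totals, RPKM also the exon length per the file headers. DESeq2 1.42.0, other scalings and filters, a replicate block and omission of each library were run as alternatives. The fit was tested on simulated data. Replicate pairs differed by 5.19 to 7.97 times counting error (chi-square per degree of freedom), so that each library was kept. Over 15 pairs of groups, deviations of same-numbered libraries correlated at -0.228 to 0.282 (median -0.076), with 7 pairs over 0.1. The numbers were not taken as pairs in the main fit, and some shared structure between same-numbered libraries remains possible.

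Members named with values were called members with at least 1 CPM in 1 arm and arms that did not overlap (up to 12 each way), up to 5 each way per treatment, the 8 highest by RPKM, SNAP25 and SYP, and the called member with the smallest adjusted p in each of 16 roles. Up to 4 genes were named per other list. The members, lists, markers and motifs were chosen with earlier results of these data known. Some members count among the calls but are neither named nor plotted here. Listed genes outside the files or under the filter are not analysed here.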

Additional observations from a re-analysis of the deposited data

Results flagged for a closer look

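TRPC4AP stood out in 1 library. In the second shNC library with E2 plus fulvestrant it had 207 CPM, while the other shNC libraries lay between 219 and 225 CPM, so that its gap to the next library was 0.632 of the range of the arm, above the critical value of 0.625 for 6 libraries. It was 1 of 46 sets of 6 libraries examined, and chance gives about 1 such set in 20. The treatments within the arm differ, and the cause was not tested.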

How the results depend on the processing

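The counts of members called with DMSO (13), E2 (19), E2 plus fulvestrant (18) and averaged over treatments (28) stayed within 1.5 times under DESeq2 (12, 17, 17 and 27), RLE scaling, library totals alone, other filters and, for single treatments, a fit of only the compared groups, which adds nothing for the average. Leaving out each library in turn gave 8 to 11, 11 to 15, 11 to 16 and 24 to 30 members, and 0 in each of the 6 treatment comparisons. With a replicate block 13, 19, 19 and 28 were called, and no treatment comparison gained a call. Of 414 results for named members in the averaged comparison, 397 kept their direction and side of the threshold, 16 lost the call (SYT15, KCNQ1 and SYP), 1 gained it (KCNN4) and 0 reversed. Calls of named members at single treatments are not covered by this count. Depth limits members under 1 CPM, where a few counts decide a change. Exon lengths behind RPKM are those of the count files, and some are short, such as that of CLCN5 at 449 bases.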
